A study of Rattus norvegicus and Homo sapiens with 12 samples.

Results

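The 45 genes described here encode the machinery of DNA replication, and were examined in DU145, a human prostate cancer cell line, before and after selection by mesenchymal stem cells (MSCs). They were taken by symbol, were matched to Ensembl identifiers, and were all among the 14316 of 60107 listed genes with enough counts to be tested. F0 is the parental DU145 population (3 libraries). F2 is the MSC-educated population (3 libraries), recovered after 72 h rounds in conditioned media (CM) of human MSCs, which were 2 rounds by the sample labels and 3 rounds by the series text, each followed in that text by 48 h in complete medium. Cells were grown in DMEM with FBS, and the series text calls the 3 samples of each population biological replicates without saying whether each F2 sample was selected on its own, so n, SD and p describe the spread between these samples. PAIII, the rat line of the series, was not analysed here for these genes, because no table used here pairs its identifiers with names.

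DNA replication begins with licensing, in which the origin recognition complex (ORC), CDC6 and CDT1 load the MCM2 to MCM7 ring onto origins in G1 phase. In S phase the kinase CDC7, with its partner DBF4, and the factors CDC45 and GINS turn the loaded ring into an active helicase. Primase and the polymerases alpha, delta and epsilon then copy both strands with the help of the PCNA clamp. Many of these genes are transcribed at the G1/S boundary under E2F factors, and their products are needed by any dividing cancer cell.

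RNA was measured with QuantSeq, which reads 1 fragment near the poly(A) end of a transcript. Levels are given as TMM-normalized CPM, a gene's counts scaled to a common library total, where TMM sets that total so that most genes do not change on average, and they are compared only between libraries of 1 gene. Gene counts per library lay between 15879480 and 16479239. Transcripts of the mitochondrial genome took 5.71% to 6.003% of gene counts in F0 and 10.2% to 10.6% in F2. Reads outside genes took 9.60% to 10.0% of uniquely placed reads in F0 and 11.3% to 11.9% in F2. The keratins KRT8, KRT18 and KRT19 of an epithelial line were present (means of 254.7 to 556 CPM), as was EPCAM (30.2 and 35.0 CPM). Each was called higher in F2, with log2 fold changes of 0.24, 0.20, 0.67 and 0.22 (adjusted p = 0.019, 0.0026, 8.9e-09 and 0.044 from edgeR). CDH1, the epithelial cadherin, fell from 14.0 to 5.78 CPM in F2 (log2 fold change -1.27, adjusted p = 7.6e-07 from edgeR). Of 18 MSC and stromal markers, 5 (THY1, CXCL12, POSTN, LUM and SPARC) had 0 counts in all 6 libraries, and the 16 markers under 10 CPM in F0 summed to 11.3 to 12.5 CPM in F0 and 8.03 to 8.76 CPM in F2. The other markers were present in F0 already, NT5E at 158 CPM and 222 CPM in F2 (log2 fold change 0.49, adjusted p = 1.3e-06 from edgeR) and VIM at 1439 and 1453 CPM, and their part in the results was not tested.

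Most of the replication genes did not pass the test between F2 and F0 DU145, and the differences that passed it were small. In the edgeR quasi-likelihood fit, adjusted over all genes by Benjamini-Hochberg, 7 of the 45 (15.6%) had an adjusted p under 0.05, against 18.2% of all tested genes. Higher in F2 were 6 genes, FEN1, CDC6, RFC4, CDT1, RRM2 and RRM1 (13.3%, against 9.49% of all genes), and 1 was lower, ORC2 (2.22%, against 8.67%). The share of called genes was thus near the background. None changed by as much as 2-fold, beside 239 of the 14316 tested genes that were called at 2-fold or more. The log2 fold changes of the 45 lay between -0.25 and 0.33. In bulk RNA, a larger share of cells in S phase and more RNA per cell cannot be told apart.

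The median log2 fold change of the 45 genes was 0.042, beside -0.0025 for all tested genes, and 29 of them (64.4%) lay above 0, beside 49.5% of all genes. At an unadjusted p under 0.05 there were 13 (28.9%, beside 30.7%). The 3 F2 libraries lay above all 3 F0 libraries for 11 genes (24.4%, beside 16.9% of all genes) and below them for 4 (8.89%, beside 17.1%), and the populations overlapped for the other 30. With 3 samples against 3, an exact permutation test of a single gene gives no p below 0.1. All 38 genes that did not pass had a 95% interval of the log2 fold change within -0.5 and 0.5, and 21 within -0.25 and 0.25. The widest reached -0.43 (POLD1) and 0.41 (ORC3), beyond the largest called changes of -0.25 and 0.33. A missing call thus did not show equal levels.

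**Figure D1:**
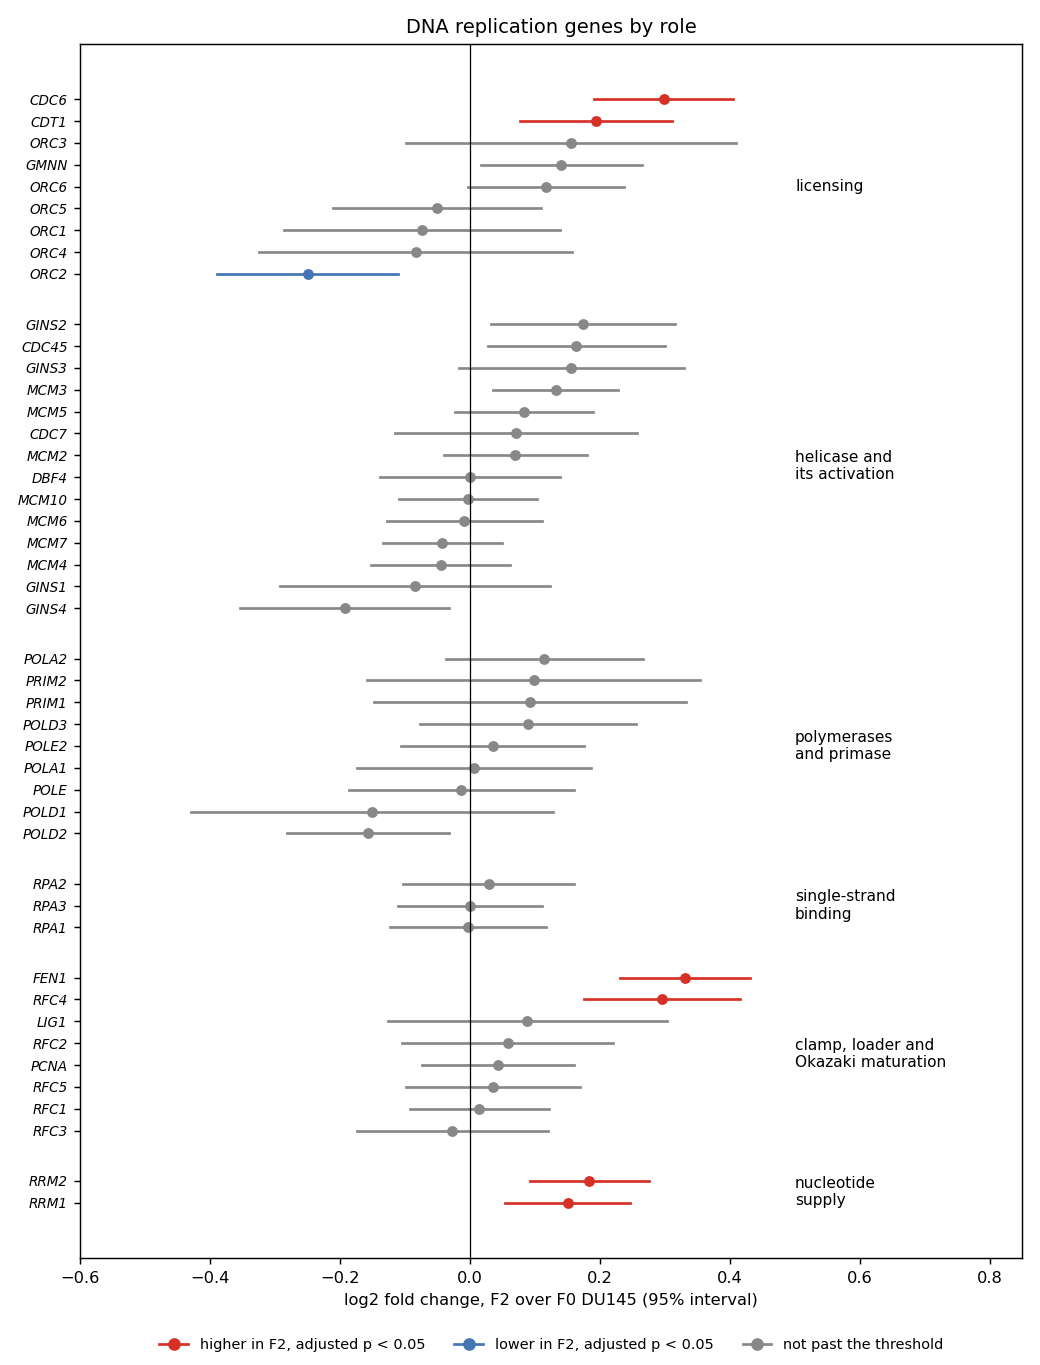
Each row is 1 of the 45 replication genes, grouped by role, and the x axis is the log2 fold change of F2 over F0 DU145 with its 95% interval from edgeR. The 6 genes in red were higher and ORC2 in blue was lower at an adjusted p under 0.05, and the 38 grey intervals all lie within -0.5 and 0.5.

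Licensing held 9 genes, of which 2 rose and 1 fell (22.2% and 11.1%, beside 9.49% and 8.67% of all genes). CDC6 (ENSG00000094804, chromosome 17, 40287633 to 40304657 in GRCh38) is the ATPase that joins ORC on origins and recruits the MCM ring. Its level was 72.6, 70.3 and 73.2 CPM in F0 replicates 1 to 3 and 87.6, 89.2 and 88.9 CPM in F2. The F2 libraries lay together and well above the F0 libraries. The log2 fold change was 0.30 (standard error 0.051, adjusted p = 3.6e-04 from edgeR), a level 22.9% higher. CDT1 (ENSG00000167513, chromosome 16, 88803213 to 88809258) brings the ring to origins together with CDC6. It had 71.7, 66.3 and 65.7 CPM in F0 and 80.4, 76.1 and 76.6 CPM in F2, and the populations did not overlap. The log2 difference was 0.19 with a standard error of 0.056 (edgeR adjusted p = 0.020). When each library was left out in turn, CDT1 was called in 3 of the 6 fits. GMNN, which encodes geminin, the inhibitor of CDT1, averaged 56.8 ± 2.71 CPM in F0 (SD, n = 3) against 62.6 ± 2.04 CPM in F2 (SD, n = 3). All its F2 libraries lay above F0, but the log2 fold change of 0.14 did not pass the test (adjusted p = 0.111 from edgeR).

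The ORC subunits moved in different directions. ORC2 (ENSG00000115942, chromosome 2, 200908973 to 200963680), a core subunit of the origin-bound complex, had 43.1, 41.6 and 41.7 CPM in F0 and 35.6, 33.8 and 36.8 CPM in F2. Every F2 library lay below every F0 library. The log2 fold change was -0.25 (standard error 0.066, adjusted p = 0.012 from edgeR), a level lower by 15.9%. ORC6, the subunit least tied to the rest of the complex, averaged 61.3 ± 2.32 CPM in F0 against 66.5 ± 2.49 CPM in F2 (SD, n = 3 each), with F2 above F0 in every library and a log2 fold change of 0.12 that did not pass (adjusted p = 0.178 from edgeR). The remaining subunits ORC1, ORC3, ORC4 and ORC5 overlapped between the populations, with log2 fold changes of -0.074, 0.15, -0.083 and -0.051. ORC3 had the widest interval of the group, from -0.10 to 0.41, and F0 replicate 1 lay at 12.2 CPM beside 16.7 and 16.5 in the other F0 libraries.

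The helicase and its activators held 14 genes, and edgeR and DESeq2 called 0 of them, beside 18.2% and 14.6% of all genes. In edgeR 4 were at an unadjusted p under 0.05 (28.6%, beside 30.7% of all genes). The MCM2 to MCM7 ring is loaded as an inactive double hexamer, and its 6 genes had log2 fold changes from -0.045 to 0.13 with a median of 0.030. MCM4, the member of this group with the most counts, had 296, 309 and 292 CPM in F0 and 277, 315 and 278 CPM in F2. Its populations overlapped, since F2 replicate 2 was the highest of all 6 libraries, and its log2 fold change was -0.045 (95% interval -0.15 to 0.06). MCM3 averaged 215 ± 2.89 CPM in F0 (SD, n = 3) against 236 ± 10.6 CPM in F2 (SD, n = 3), with F2 above F0 in every library, and its log2 fold change of 0.13 lay just outside the threshold (adjusted p = 0.054 from edgeR). MCM7 had 199.7, 204.8 and 197.99 CPM in F0 and 195.4, 194.6 and 195.0 CPM in F2. The F2 values of MCM7 lay close together just under the F0 range, and the log2 fold change was -0.043 (adjusted p = 0.551 from edgeR). MCM2, MCM5 and MCM6 overlapped between the populations, at 0.070, 0.083 and -0.0087.

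The GINS complex, which holds the ring and CDC45 together at the fork, showed no common direction. GINS2 and GINS3 had log2 fold changes of 0.17 (adjusted p = 0.085) and 0.16 (adjusted p = 0.214), and GINS1 and GINS4 had -0.085 (adjusted p = 0.610) and -0.19 (adjusted p = 0.091), all from edgeR. GINS4 had 31.6, 36.3 and 32.4 CPM in F0 and 29.03, 28.1 and 30.7 CPM in F2, so that the populations did not overlap. CDC45 averaged 44.0 ± 2.10 CPM in F0 (SD, n = 3) against 49.3 ± 2.23 CPM in F2 (SD, n = 3), with F2 above F0 in every library and a log2 fold change of 0.16 (95% interval 0.03 to 0.30, adjusted p = 0.091 from edgeR). The kinase genes CDC7 (0.070) and DBF4 (-0.00058) and MCM10 (-0.0033), a fork factor that acts after CDC45 and GINS, overlapped between the populations.

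Polymerases and primase held 9 genes, and edgeR and DESeq2 called 0 of them, beside 18.2% and 14.6% of all genes. In edgeR 1 gene was at an unadjusted p under 0.05 (11.1%, beside 30.7% of all genes). That gene was POLD2 (ENSG00000106628), the accessory subunit of the lagging-strand polymerase delta and the member of this group with the most counts. It had 74.3, 77.5 and 79.9 CPM in F0 and 71.6, 63.8 and 72.2 CPM in F2. Every F2 library lay below F0, and F2 replicate 2 was the lowest. The log2 fold change was -0.16 (95% interval -0.28 to -0.03, adjusted p = 0.074 from edgeR). The other subunits of polymerase delta overlapped between the populations. POLD1, the catalytic subunit, was at -0.15 with a wide interval (-0.43 to 0.13), and POLD3 was at 0.089. Polymerase epsilon, which copies the leading strand, was at -0.013 for POLE and 0.034 for POLE2. Small subunits that were not among the 45 genes, named after their values were seen, included POLE4 (0.23, adjusted p = 0.0093), which rose, POLE3 (0.097, adjusted p = 0.110) and POLD4 (-0.29, adjusted p = 0.076), all from edgeR. Polymerase alpha and primase, which start each new strand, were at 0.0058 for POLA1, 0.11 for POLA2, 0.093 for PRIM1 and 0.098 for PRIM2. The F2 libraries of PRIM1 spread from 15.8 to 23.4 CPM, wider than the 18.1 to 20.1 CPM of F0.

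RPA, the trimer that coats single-stranded DNA at the fork, was the group with the smallest differences. Of its 3 genes edgeR called 0, beside 18.2% of all genes, and 0 at an unadjusted p under 0.05, beside 30.7%. DESeq2 called 0 at its adjusted p, beside 14.6% of all genes. RPA1 had 135.3, 129.1 and 140.8 CPM in F0 and 136.9, 122.9 and 144.5 CPM in F2. The 3 F2 values spread around the F0 values on both sides. Its log2 fold change was -0.0032 (95% interval -0.12 to 0.12), and RPA2 and RPA3 were at 0.029 (-0.10 to 0.16) and 0.00024 (-0.11 to 0.11).

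Of the 8 genes for the clamp, its loader and the maturation of Okazaki fragments, 2 rose (25%, beside 9.49% of all genes) and 0 fell. FEN1 (ENSG00000168496, chromosome 11, 61792637 to 61797244) encodes the nuclease that trims the flaps between Okazaki fragments. It had 222, 229 and 241 CPM in F0 and 287, 279 and 304 CPM in F2. The lowest F2 library lay well above the highest F0 library. The log2 fold change of 0.33, with a standard error of 0.048 (edgeR adjusted p = 6.0e-05), was the largest rise among the 45 genes and stood for a level 25.7% higher. LIG1, the ligase that seals the nick FEN1 leaves, averaged 25.5 ± 2.34 CPM in F0 (SD, n = 3) against 27.1 ± 4.40 CPM in F2 (SD, n = 3), with overlapping libraries and a log2 fold change of 0.088 (adjusted p = 0.607 from edgeR).

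RFC4 (ENSG00000163918, chromosome 3, 186789880 to 186807058) encodes a small subunit of the loader that places PCNA on DNA. It had 57.2, 58.7 and 56.2 CPM in F0 and 69.2, 74.0 and 67.8 CPM in F2, and the populations were far apart. The log2 fold change was 0.30 with a standard error of 0.057 (edgeR adjusted p = 0.0011). The other subunits RFC1, RFC2, RFC3 and RFC5 lay between -0.027 and 0.058, all with overlapping libraries. The last exon of RFC4 overlaps an exon of EIF4A2 on the opposite strand, whose log2 fold change was 0.33 (adjusted p = 1.2e-04 from edgeR). Whether the counting used strand is not given in the sources used here, and the part of EIF4A2 reads in the RFC4 counts was not tested. PCNA itself averaged 115 ± 4.27 CPM in F0 (SD, n = 3) against 118 ± 8.52 CPM in F2 (SD, n = 3), with a log2 fold change of 0.042 (95% interval -0.07 to 0.16).

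Ribonucleotide reductase, which makes the deoxynucleotides for DNA synthesis, held 2 genes. Under TMM both rose (100%, beside 9.49% of all genes), and under library size alone 0 were called. RRM1 (ENSG00000167325, chromosome 11, 4094707 to 4138876), the large subunit, had 361, 365 and 379 CPM in F0 and 403, 392 and 432 CPM in F2, without overlap. Its log2 fold change was 0.15 with a standard error of 0.046 (edgeR adjusted p = 0.027). Leaving out single libraries kept RRM1 called in 2 of 6 fits. RRM2 (ENSG00000171848, chromosome 2, 10120698 to 10131419), the small subunit whose level limits the enzyme in S phase, had 213.8, 223.3 and 225.6 CPM in F0 and 250.6, 250.8 and 251.3 CPM in F2. The F2 libraries of RRM2 were nearly equal and lay above all F0 libraries. Its log2 fold change was 0.18 with a standard error of 0.044 (edgeR adjusted p = 0.0056), and RRM2 stayed called whichever single library was left out.

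**Figure D2:**
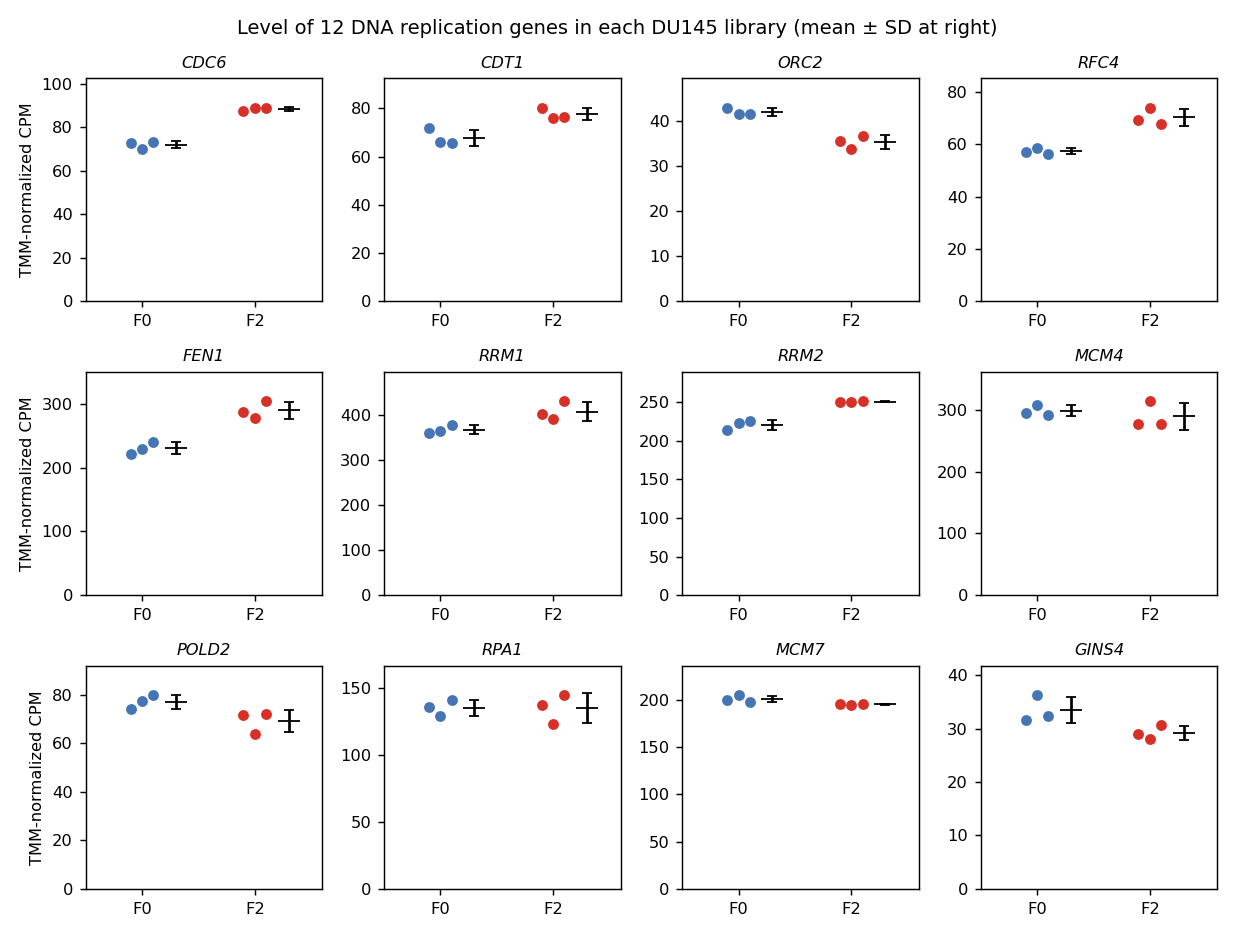
TMM-normalized CPM of 12 replication genes in each DU145 library, with F0 in blue, F2 in red, 1 point per library in the order of replicates 1 to 3, and the mean ± SD (n = 3) beside them in black. CDC6, CDT1, RFC4, FEN1, RRM1 and RRM2 are higher in all 3 F2 libraries, ORC2 is lower in all 3, and the F0 and F2 points of MCM4 and RPA1 overlap.

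Part of these calls changed with the scaling of the libraries. When counts were divided by library size alone, the median log2 fold change of all genes went from -0.0025 to -0.092, that of the replication genes went from 0.042 to -0.047, and the calls over all genes changed from 1358 higher and 1241 lower to 832 higher and 2805 lower. Called then were 7 of the 45 replication genes (15.6%, beside 25.4% of all genes), 3 higher and 4 lower. Of the calls over all genes, 22.9% were higher. FEN1 (log2 fold change 0.24, adjusted p = 0.0011), CDC6 (0.21, adjusted p = 0.0058), RFC4 (0.21, adjusted p = 0.013) and ORC2 (-0.34, adjusted p = 9.7e-04) kept their calls in edgeR. CDT1 (0.10, adjusted p = 0.185), RRM2 (0.094, adjusted p = 0.123) and RRM1 (0.060, adjusted p = 0.364) lost theirs, and POLD2 (-0.25, adjusted p = 0.0051), GINS4 (-0.28, adjusted p = 0.011) and MCM7 (-0.13, adjusted p = 0.030) became lower. A change of scaling shifts all genes alike, so it leaves the distance of the replication genes from the median of all genes (0.045) in place. That distance lay between 0.027 (without F0 replicate 1) and 0.062 (without F0 replicate 3) when single libraries were left out, and was 0.028 with no filter beyond 1 count.

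With the mitochondrially encoded genes left out and library size alone, a setting chosen after seeing the data, the median over the replication genes was 0.025 and that of all genes was -0.020. The 7 genes then kept their calls, and POLD2 joined them (-0.18, adjusted p = 0.046 from edgeR). FEN1, CDC6, RFC4 and ORC2 were past the threshold in each of the 15 alternatives tried. Those that left out 1 library called between 5 and 10 of the 45 genes. The 5 came without F0 replicate 2 (11.5% of all genes called) and without F2 replicate 1 (12.1%). The 10 came without F2 replicate 2 (18% of all genes called), when MCM3, CDC45 and GINS2 were added. F2 replicate 2 was the highest or the lowest of the F2 libraries for 34 of the 45 genes, and F2 replicates 1 and 3 were so for 19 and 37.

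**Figure D3:**
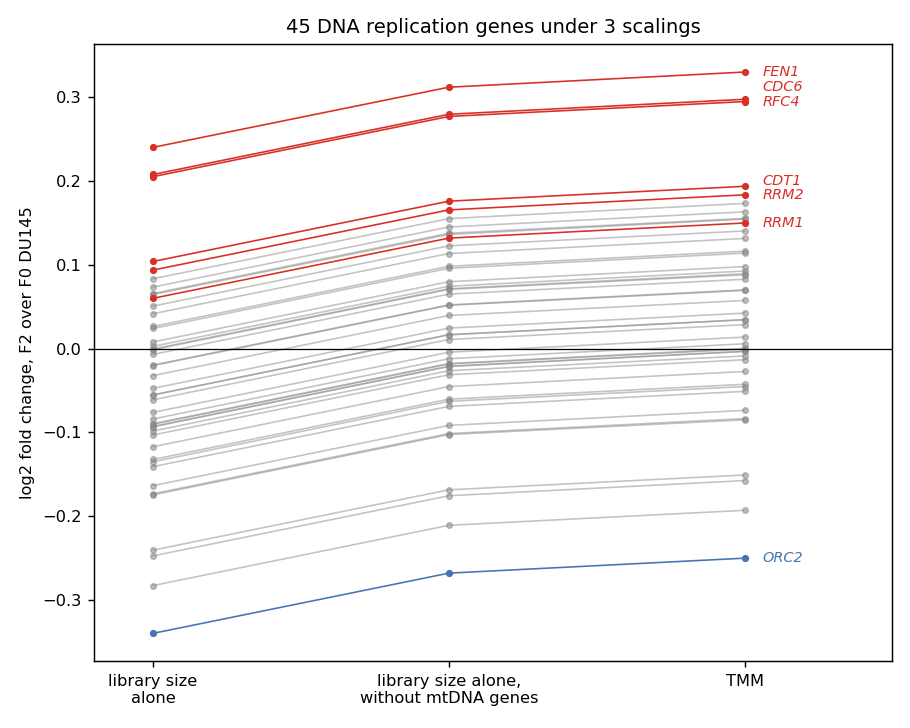
Each line follows 1 of the 45 replication genes over 3 ways of scaling the libraries, with the log2 fold change of F2 over F0 DU145 on the y axis and genes called under TMM in color. All lines shift together, the median rising from -0.047 under library size alone to 0.042 under TMM.

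Where exons of neighbouring genes overlap at a 3′ end, reads can be set aside as ambiguous or given to the wrong gene, so a count can be too low or too high. For 41 of the 45, the last exons of the protein-coding transcripts in GENCODE release 29 overlap no exon of another tested gene. The exceptions are RFC4, ORC4 (with ACVR2A) and GINS2 (with GSE1), overlapped on the opposite strand, and PRIM1, overlapped by NACA on its own strand. That comparison leaves out introns. Over whole gene spans, FEN1 is overlapped by FADS2 on its own strand and by TMEM258 on the opposite strand. POLD3 (by AP001372.2) and RFC3 (by AL161891.1) are overlapped on their own strand as well. The part of reads from introns of these neighbours was not tested. Pseudogenes named after their parent gene are annotated for 8 of the 45 genes, among them FEN1, RRM2, PCNA and POLD2. Reads shared with such a copy make the levels of these genes uncertain. The listed counts of these 14 pseudogenes did not exceed 14 in any library (DBF4P1) and were 0 for FEN1P1 and the 3 RRM2 copies.

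Genes beyond the 45 were taken from 5 lists by role, of replication and of the cell cycle. In these lists 29 of 77 were past the threshold in edgeR (37.7%, beside 18.2% of all genes), 22 higher and 7 lower. Of the 7 falls, 6 were in the list of G2/M and mitosis genes and 1 was CCND3, a G1/S regulator. Of 22 other factors of the fork and of origin firing, 7 rose and 0 fell (31.8% and 0%, beside 9.49% and 8.67% of all genes). Their median log2 fold change of 0.078 under TMM became -0.012 under library size alone, when 2 rose and 3 fell. Over all 14316 genes that scaling gave 832 rises and 2805 falls. The 7 rises became 2 without F2 replicate 1 and 3 without F0 replicate 2, and 2 genes fell with the replicate block. The largest rises were those of DNA2 (0.40, adjusted p = 0.045), a nuclease-helicase of flap processing, TICRR (0.37, adjusted p = 0.030), which brings CDC45 to origins, and RECQL4 (0.30, adjusted p = 0.0031), a helicase of origin firing. With single libraries left out, DNA2 was called in 2, TICRR in 3 and RECQL4 in all of the 6 fits, and only RECQL4 of these 3 was called under library size alone. Of 10 other genes of nucleotide supply, 2 rose and 0 fell. That was 20% called, beside 18.2% of all genes, and 20% higher, beside 9.49%. Neither of the 2 was called under library size alone. The count was 0 in each direction without F0 replicate 1, F0 replicate 2, F2 replicate 1 or F2 replicate 3. TYMS, thymidylate synthase, was among them (0.13, adjusted p = 0.041), and it was called in 2 of those 6 fits. In replication-coupled chromatin assembly, 2 of 7 rose and 0 fell (28.6% and 0%, beside 9.49% and 8.67% of all genes). They were UHRF1 (0.40, adjusted p = 8.5e-04) and the maintenance methyltransferase DNMT1 (0.19, adjusted p = 0.0055), both from edgeR, which act together to copy DNA methylation. The assembly factors CHAF1A, CHAF1B, ASF1A, ASF1B and NASP did not pass. Under library size alone 1 of the 7 rose and 2 fell, and DNMT1, then at 0.10, was no longer called.

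G1/S regulators, which act ahead of replication, held 22 genes, of which 9 rose and 1 fell (40.9% and 4.55%, beside 9.49% and 8.67% of all genes), with a median log2 fold change of 0.22 (0.13 under library size alone, when 5 rose and 2 fell). Cyclin E2, CCNE2, rose from 20.5 to 28.0 CPM (log2 fold change 0.45, adjusted p = 0.0011 from edgeR). CDKN1A, the inhibitor p21 of cyclin-dependent kinases, rose as well (0.35, adjusted p = 4.7e-04), and cyclin D3, CCND3, fell (-0.35, adjusted p = 0.0022). The E2F factors E2F1 (0.27), E2F3 (0.21) and E2F4 (0.33) and their partner TFDP1 (0.25) also rose. The listed factors E2F2 (0.075, adjusted p = 0.635), E2F7 (0.47, adjusted p = 0.076) and E2F8 (0.22, adjusted p = 0.306) did not pass in edgeR. All these E2F genes and TFDP1 were named after their values were seen, and E2F1 and E2F3 were not called under library size alone. Of 16 genes of G2/M and mitosis, 2 rose and 6 fell (12.5% and 37.5%), with a median of -0.080. Under library size alone 1 rose and 9 fell, with a median of -0.17. Over all genes that scaling gave 832 rises, 2805 falls and a median of -0.092. Without F0 replicate 2 or without F2 replicate 1, 1 of the 16 genes rose and 2 fell. CCNB1, the mitotic cyclin B1, fell from 140.3 to 108.5 CPM (-0.37, adjusted p = 8.1e-05 from edgeR) and CDC20, an activator of the anaphase-promoting complex, fell (-0.25, adjusted p = 0.0030), while the proliferation marker MKI67 rose (0.27, adjusted p = 5.9e-04). Differences between these lists and the replication machinery were not tested.

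**Figure D4:**
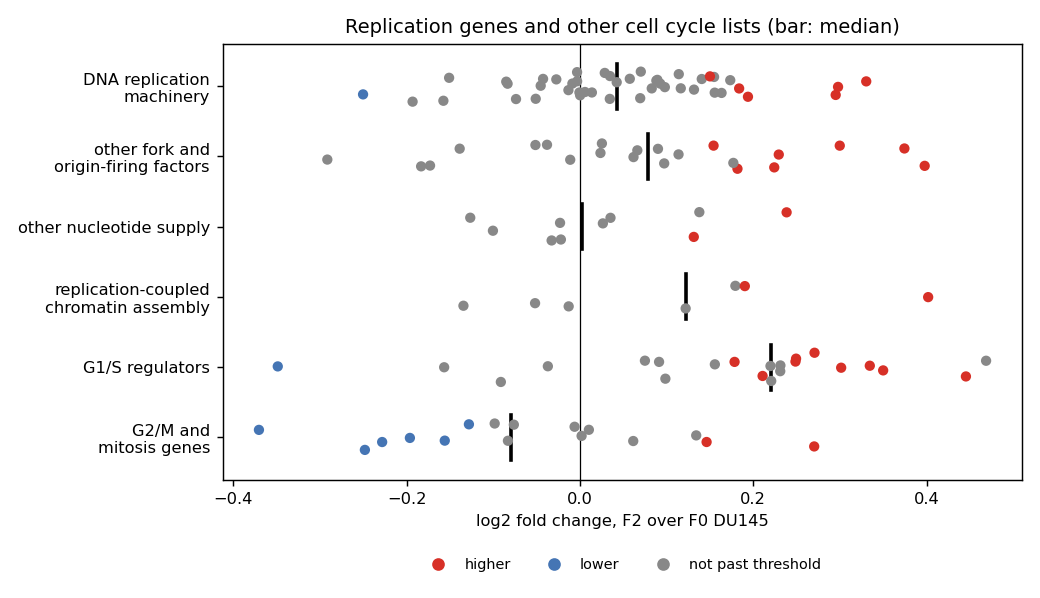
Each point is 1 gene, placed by its log2 fold change of F2 over F0 DU145 and colored by its edgeR call, with the 45 replication genes in the top row, 5 other lists below and a black bar at each median. The medians lie at 0.042 for the replication machinery, 0.22 for G1/S regulators and -0.080 for G2/M and mitosis genes under TMM.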

How the data were processed

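QuantSeq FWD libraries were made from 500 ng of RNA and read as single 101-base reads. Alignment and counting were run by the authors in Bluebee software, and the deposited values are raw counts of each gene, not normalized. The submitters' processing notes name STAR 2.5.2a, HTSeq 0.6.0 and GRCh38. Lines that name no gene and 92 spike-ins were left out. Reads outside genes were 9.60% to 11.9% and ambiguous reads 1.36% to 1.50% of uniquely placed reads.

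From the 6 DU145 columns, matched to samples by their labels, R 4.3.3 with edgeR 4.0.16 was used: filterByExpr (minimum count 10, minimum total 15), TMM, and the quasi-likelihood F-test of F2 against F0 (two-sided, Benjamini-Hochberg over 14316 genes, threshold 0.05). Standard errors and 95% intervals were derived from the F statistic. Symbols were paired with 56104 of 60107 identifiers, and positions come from GENCODE release 29 on GRCh38. Library totals were 15879480 to 16479239 gene counts. Replicates of 1 population differed by more than sampling noise in every pair.

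The members, lists, tests and naming rule were chosen with earlier results of these data known. By that rule, library values were given for the members with the largest called changes, those whose call changed with the scaling and the member of highest CPM in each role, other members were given by their values, and at most 3 called genes of each other list were named. Genes named beyond it, among them E2F1, E2F2, E2F3, E2F4, E2F7, E2F8, TFDP1, POLE3, POLE4, POLD4 and the assembly factors that did not pass, were chosen after their values were seen. Alternatives were median-ratio size factors, library size alone, mitochondrially encoded genes left out, centring, other filters, DESeq2 1.42.0, a replicate block and each library left out. Human promoter sequences were not analysed here. The rat counts were not used for tests. Some genes of the lists are not reported here by name.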

Additional observations from a re-analysis of the deposited data

How the results depend on the processing

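Of 15 alternatives, 6 (median-ratio size factors, mitochondrially encoded genes left out, centring on the median of all genes, no filter beyond 1 count, at least 10 counts in every library, and DESeq2) called the same 7 replication genes as TMM with edgeR. No replication gene that was past the threshold in any setting changed its direction. The median log2 fold change of the 45 genes moved by more than the spread between replicates (SD 0.0176) under library size alone (-0.047), under library size alone without mitochondrially encoded genes (0.025, chosen after seeing the data) and without F0 replicate 3 (0.061). The first of these changed its sign. Over the fits that left out 1 library, the median lay between 0.028 and 0.061, and between 5 and 10 replication genes were called. Genes of the other lists called were between 16 and 32 against 29, and all genes called between 1670 and 2621 against 2599. The lowest count over all genes came without F0 replicate 2 (17 genes of the other lists), and the lowest over the other lists without F2 replicate 1.

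Same-numbered F0 and F2 samples did not deviate together (correlations of 0.010, -0.010 and 0.029 across genes, and not every sample correlated best with its own number), so the numbers were not taken as pairs. With the replicate block 2867 genes, 33 genes of the other lists and 9 replication genes were called. MCM3 (0.13, adjusted p = 0.035 from edgeR) and POLD2 (-0.16, adjusted p = 0.049) were added, and the median over the replication genes was 0.041.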
